A study of Mus musculus with 12 samples.

Results

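Small nucleolar RNAs (snoRNAs) and small Cajal body RNAs (scaRNAs) were followed in mouse liver together with Rn45s, the precursor of the ribosomal RNAs. Genes were chosen by symbol, as those of the count table that start with Snora, Snord or Scarna, plus Rn45s. The table holds 24795 genes, 120 of them matched, and 24 had a summed count of 10 or more over the 12 libraries. These 24 are Rn45s, 12 Snora, 7 Snord and 4 Scarna genes. At the threshold, Snora16a and Scarna3b had 10 counts each and were kept, whereas Snora28 with 9 and Snord16a with 7 were not.

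snoRNAs pair with other RNAs in the nucleolus and guide the chemical modification of bases, mostly in ribosomal RNA. The C/D box class (Snord) guides methylation of the ribose and is bound by fibrillarin, and the H/ACA class (Snora) guides the conversion of uridine to pseudouridine by dyskerin. scaRNAs guide the same reactions on spliceosomal RNAs in the Cajal body. In mammals most are cut out of the introns of other genes, and they carry no poly(A) tail. Rn45s is transcribed by RNA polymerase I and cleaved into the mature ribosomal RNAs, which also lack such a tail.

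The libraries came from livers of male mice, either wild-type (WT) C57BL/6N or Scly KO, which lack selenocysteine lyase, an enzyme that releases selenium from selenocysteine for reuse. Both genotypes received from weaning selenium as sodium selenite at 0.08 ppm (low, LS) or 0.25 ppm (adequate, MS) for at least 8 weeks, and the Scly KO animals were kept as a separate homozygous colony. There were 3 libraries for each of 4 groups, WT LS (S1 to S3), WT MS (S4 to S6), KO MS (S7 to S9) and KO LS (S10 to S12). Poly(A) RNA was isolated before strand-specific libraries were made, so the values below are for those snoRNA, scaRNA and Rn45s molecules that were carried through that selection. The exact age of the animals at collection, and whether each library is a separate mouse, are not stated in the sources used here, so p-values measure the spread between libraries.

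Several libraries stood apart. Total counts ranged from 4797067 in S1 to 11762165 in S12, and KO LS had the 3 largest totals of the 12 (10024908 to 11762165). The share of Rn45s was 17.0% in S7, 19.9% in S8 and between 2.45% and 9.23% in the remaining libraries. The TMM normalization factor was 0.751 in S7, 0.812 in S8 and 1.54 in S12, a library that also stood apart in its cell type markers, described last. Counts were scaled by TMM to CPM (counts per 1e+06 normalized counts), on which a count of 3 corresponds to 0.683 CPM in S1 and to 0.167 CPM in S12. Scly itself was at 73.1 to 105 CPM in the WT libraries and at 4.84 to 6.90 CPM in the Scly KO libraries. In bulk liver, fewer cells of a type and less RNA per cell cannot be told apart.

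The sequences of 8 of the genes are shown, among them 3 of the most counted, 4 whose values in single libraries or groups are described further on, and Snord15a for comparison with its neighbour Snord15b. They were taken from GENCODE M21 transcripts of the GRCm38 (mm10) build, 5′ to 3′, with capitals on the boxes that define the class. For the C/D class the capitals mark the C box (NTGATGA, searched in the first 20 bases) and the D box (CTGA, in the last 20 bases), and for the H/ACA class they mark the ACA that stands 3 bases before the end. Only the transcript's own strand was searched. The ends of a GENCODE transcript differ by some bases from those in the count table for some of these genes.
Scarna13: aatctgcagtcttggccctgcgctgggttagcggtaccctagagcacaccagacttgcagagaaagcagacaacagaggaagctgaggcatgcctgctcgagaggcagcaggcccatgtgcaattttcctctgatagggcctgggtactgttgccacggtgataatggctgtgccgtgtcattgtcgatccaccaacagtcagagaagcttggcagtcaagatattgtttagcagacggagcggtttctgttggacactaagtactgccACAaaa
Scarna6: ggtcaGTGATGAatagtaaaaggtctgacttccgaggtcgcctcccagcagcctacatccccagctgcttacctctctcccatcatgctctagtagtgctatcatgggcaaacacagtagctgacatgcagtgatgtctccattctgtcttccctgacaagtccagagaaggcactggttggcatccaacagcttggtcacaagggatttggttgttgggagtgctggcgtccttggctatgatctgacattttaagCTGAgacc
Snord17: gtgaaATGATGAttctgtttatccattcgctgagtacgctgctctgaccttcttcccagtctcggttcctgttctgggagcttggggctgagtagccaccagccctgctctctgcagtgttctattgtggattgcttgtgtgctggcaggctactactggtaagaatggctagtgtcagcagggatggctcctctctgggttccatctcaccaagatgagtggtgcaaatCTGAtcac
Snord15b: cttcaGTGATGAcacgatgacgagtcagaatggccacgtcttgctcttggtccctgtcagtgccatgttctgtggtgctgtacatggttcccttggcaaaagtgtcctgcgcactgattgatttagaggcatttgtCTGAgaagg
Snord15a: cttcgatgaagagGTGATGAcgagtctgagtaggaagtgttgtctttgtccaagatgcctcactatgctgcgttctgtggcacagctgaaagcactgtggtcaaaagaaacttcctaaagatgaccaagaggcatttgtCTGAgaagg
Snora78: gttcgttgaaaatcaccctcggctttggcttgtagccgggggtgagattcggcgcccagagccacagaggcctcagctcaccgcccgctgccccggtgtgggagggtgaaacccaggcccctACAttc
Snora7a: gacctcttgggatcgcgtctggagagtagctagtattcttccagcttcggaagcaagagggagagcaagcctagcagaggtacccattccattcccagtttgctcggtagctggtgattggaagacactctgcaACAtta
Snord104: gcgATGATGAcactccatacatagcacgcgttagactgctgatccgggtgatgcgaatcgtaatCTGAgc
Scarna13 lies at chr12:105031075-105031349 on the minus strand and Scarna6 at chr1:87784556-87784820 on the plus strand. Snord17 lies at chr2:144265979-144266216 on the minus strand, and Snord15b (chr7:99479563-99479707) and Snord15a (chr7:99482785-99482932) lie near each other on the minus strand of the same chromosome. Snora78 (chr17:24719676-24719803) and Snora7a (chr6:115807975-115808114) are on the minus strand and Snord104 (chr11:106500993-106501062) on the plus strand.

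By these boxes the kept genes carried the hallmarks of their names in most cases. Both C and D boxes were found in 5 of 7 Snord, 0 of 12 Snora and 1 of 4 Scarna genes, and the ACA in 9 of 12 Snora, 0 of 7 Snord and 1 of 4 Scarna genes. No such box was found in Snord22, Snord118, Snora74a, Snora44, Snora17, Scarna3a or Scarna3b, none of which is among the sequences shown. Where a class is given for them below, it is that of the name. Among all GENCODE transcripts, the C and D boxes were found in 68.4% of 98 Snord and 0 of 42 Snora, and in 19.9% of the 1558 snoRNA and scaRNA transcripts as a whole. The ACA was found in 83.3% of Snora and in 19.3% of the 1558. By this search Scarna6 thus has a C/D arrangement and Scarna13 ends as an H/ACA RNA does. An H/ACA part away from the end was not searched for, so Scarna6 may hold more than the C/D boxes. Snord15a and Snord15b, both within the ribosomal protein gene Rps3, were identical in 66.05% of 162 aligned columns.

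Most genes of these families were barely counted, and the counted ones were the long ones. Apart from Rn45s, 68 of the 119 matching genes had no count in any library, 28 had a sum above 0 and under 10, and 23 had 10 or more. The kept genes had a median annotated length of 134 bases (73 to 275), against 68 bases (22 to 164) for the genes under 10 counts with a usable interval. Of the 72 genes shorter than 100 bases, 2 were kept, Snord104 and Snord89. Genes with an annotated interval over 500 bases, of which there were 5, all without counts, were left out of this comparison. The only 4 genes of 190 bases or more were also the only 4 with over 1000 counts. Scarna13 had 2652 counts, Snora74a 2356, Snord17 2168 and Scarna6 1366, which together made 82.2% of the counts of all 23 kept snoRNA and scaRNA genes. Per 100 bases of length the order changed, with 1190 counts for Snora74a, 981 for Snord17, 964 for Scarna13 and 551 for Scarna6. Rn45s, in contrast, had 7635746 counts over its 5833 bases.

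**Figure D1:**
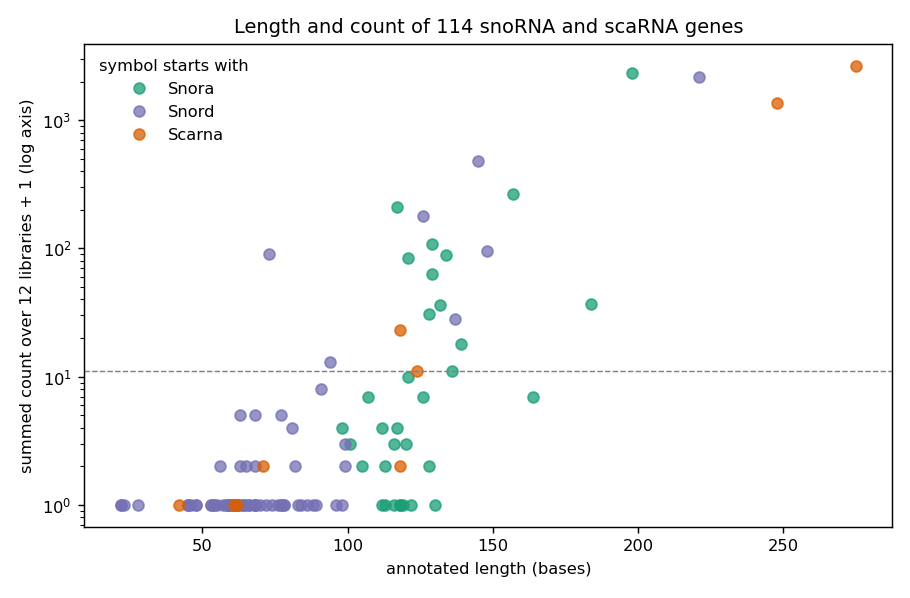
Annotated length in bases (x axis) and summed count over the 12 libraries plus 1 on a log axis (y axis) for 114 snoRNA and scaRNA genes of the count table, coloured by symbol. The dashed line is the minimum of 10 counts, and the 4 genes of 190 bases or more lie above 1000 counts.

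The level of the 23 genes together was highest in S1 and lowest in Scly KO on low selenium. Their summed level was 304, 106 and 99.0 CPM in the WT LS libraries, 71.3, 89.1 and 121 CPM in WT MS, 157, 199 and 53.0 CPM in KO MS, and 40.1, 61.2 and 56.2 CPM in KO LS. On this TMM scale the KO LS libraries were below every WT library, whereas per 1e+06 of the unscaled total S12 had 85.9 against 74.99 in S4. By CPM, within KO MS S9 was at the level of KO LS. Without the 4 most counted genes the sum was 81.0 CPM in S1 and 56.0 CPM in S8, and 4.88 to 19.9 CPM in the other 10 libraries.

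The most counted gene, Scarna13, was at 113, 22.2 and 20.8 CPM in WT LS, 20.3, 22.7 and 30.1 CPM in WT MS, 48.0, 37.0 and 10.3 CPM in KO MS, and 8.86, 17.1 and 12.7 CPM in KO LS. S1 held 5.44 times the median of the other libraries. Snora74a, an H/ACA snoRNA of the Snhg4 gene, was at 55.3, 26.3 and 22.7 CPM in WT LS, 11.7, 23.01 and 27.2 CPM in WT MS, 41.5, 36.7 and 13.04 CPM in KO MS, and 11.1, 13.5 and 14.4 CPM in KO LS. Both genes had their highest value in S1, followed by S7 and S8, and their lowest in S10. Snord17, a C/D box RNA, varied least of the 4, at 41.2, 22.3 and 16.6 CPM in WT LS, 15.6, 22.5 and 27.5 CPM in WT MS, 29.0, 33.6 and 13.8 CPM in KO MS, and 10.3, 14.9 and 15.6 CPM in KO LS. Scarna6 had no excess in S1, with 13.4, 17.5 and 19.0 CPM in WT LS, 11.4, 11.8 and 17.2 CPM in WT MS, 22.6, 35.5 and 7.10 CPM in KO MS, and 4.97, 6.54 and 5.01 CPM in KO LS. All 3 KO LS libraries of Scarna6 lay below the other 9.

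Among the less counted genes, the excess in S1 varied. Snord15b was at 31.2, 4.49 and 4.85 CPM in WT LS, 3.15, 1.34 and 3.32 CPM in WT MS, 1.79, 8.63 and 3.60 CPM in KO MS, and 1.81, 2.89 and 2.73 CPM in KO LS, so S1 held 28.5% of its 480 counts. Its neighbour within Rps3, Snord15a, was at 1.37, 1.38 and 1.52 CPM in WT LS, 0.755, 0.670 and 1.18 CPM in WT MS, 0.552, 1.10 and 0.681 CPM in KO MS, and 0.633, 0.385 and 0.779 CPM in KO LS. These 2 snoRNAs of the same host gene therefore differed in S1, where Snord15b was 9.92 times and Snord15a 1.81 times the median of the other libraries. Snora7a, an H/ACA snoRNA within the ribosomal protein gene Rpl32, was at 5.92, 1.27 and 1.66 CPM in WT LS, 0.755, 0.559 and 1.18 CPM in WT MS, 1.10, 2.82 and 0.292 CPM in KO MS, and 0.181, 0.289 and 0.223 CPM in KO LS. The KO LS values rest on 2, 3 and 4 counts. Snora78, within Snhg9, was at 8.42, 2.76 and 2.08 CPM in WT LS, 2.01, 1.01 and 2.25 CPM in WT MS, 2.62, 11.3 and 1.36 CPM in KO MS, and 0.814, 1.15 and 1.06 CPM in KO LS, highest in S8.

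**Figure D2:**
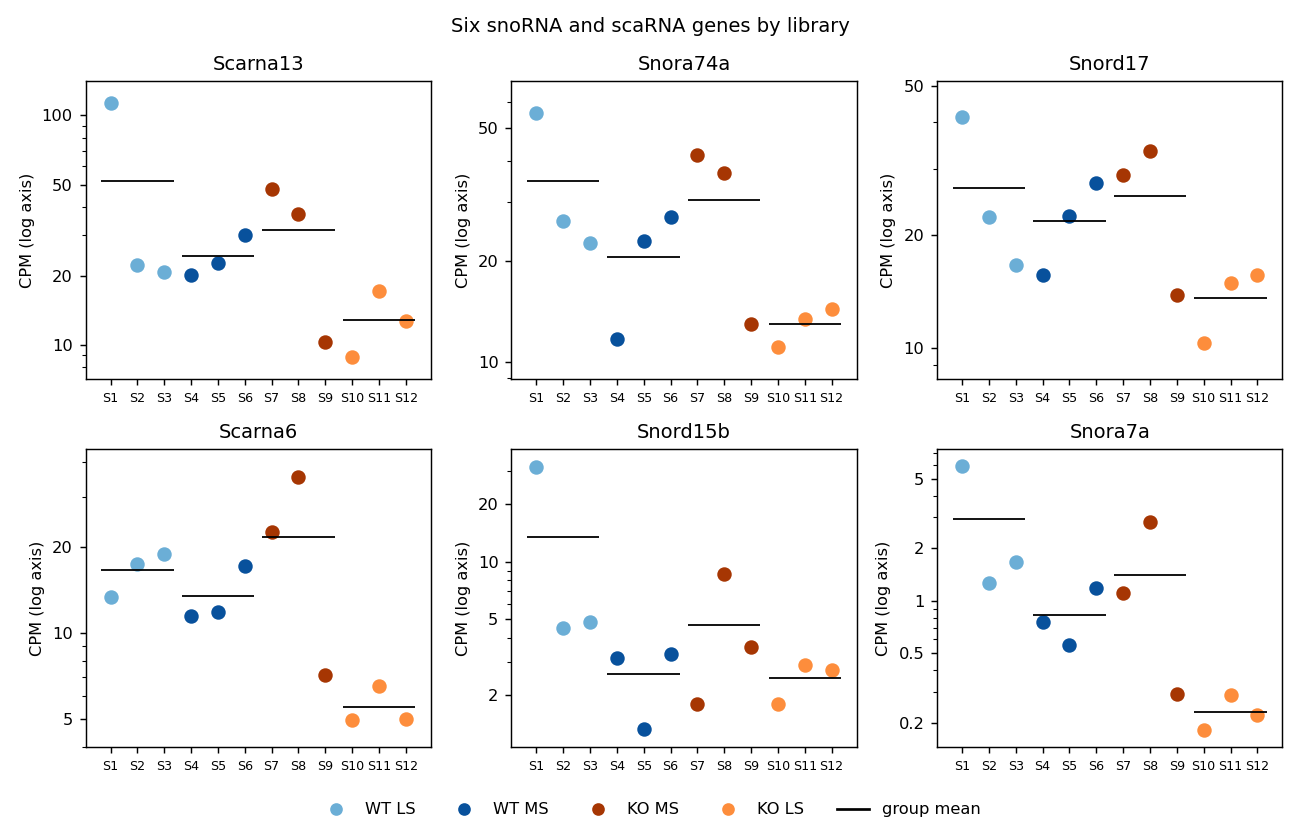
CPM on a log axis (y axis) in each of the 12 libraries (x axis) for 6 snoRNA and scaRNA genes, coloured by group, with a line at the group mean (n = 3). The KO LS libraries and S9 lie low for Scarna13, Scarna6 and Snora7a, and S1 lies above all other libraries for 5 of the 6 genes.

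Snora44 of Snhg12 ranged from 0.445 CPM in S12 to 7.29 CPM in S1, and Snora26 of Dancr from 0.0904 CPM in S10 to 4.10 CPM in S1. Snora26 was the only kept snoRNA or scaRNA gene with fractional counts, since the authors' counting divides a read between the genes it fits. Snord22, known in frog oocytes to be needed for the maturation of the RNA of the small ribosomal subunit, was listed at 0 in S10 and reached 9.57 CPM in S8, which held 34.5% of its 177 counts. Snord104 was the most uneven, with 48 of its 90 counts in S1 (53.3%, 10.9 CPM) and 10 in S8 (1.57 CPM), and 0.0904 to 0.831 CPM elsewhere. Snora52 and Snora70 instead had their highest values in S8, at 3.77 CPM and 3.29 CPM. Snord118, known in frog oocytes to be needed for the RNA of the large subunit, had 27 counts spread over 10 libraries with 0 in S9 and S10. The other 8 kept genes (Snora23, Snora17, Snora21, Scarna3a, Snora43, Snord89, Snora16a and Scarna3b) had 10 to 36 counts in all.

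In each library most of the 23 genes had at least 1 count. In S1, which had the fewest total counts, all 23 genes were counted at least once, against 16 in S10 and 19 to 22 in the other libraries. Of the 24 genes, 12 passed the filter on low counts for the test across all genes, namely Rn45s and 11 snoRNA and scaRNA genes, and the other 12 did not. A gene could pass the filter through the group where it was high, so counts over these 12 do not speak for the 24. The library with the highest CPM was S1 or S8 in 11 of these 12 genes (all but Snord15a), against 18.7% of the 12009 tested genes. S9 was below both S7 and S8 in 10 of 12, against 41.5% of the tested genes, and below every WT library in 7 of 12, against 18.9%. S9 lay within the range of KO LS in 8 of 12, against 71.1% of the tested genes.

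Rn45s showed a similar order of libraries. It took 9.23%, 5.67% and 7.33% of the counts in WT LS, 4.58%, 4.47% and 8.50% in WT MS, 17.0%, 19.9% and 2.94% in KO MS, and 2.45%, 4.54% and 3.83% in KO LS. S9 again stood with the KO LS libraries and not with S7 and S8. The mean share was 3.61% ± 1.06 (SD, n = 3) in KO LS against 7.41% ± 1.78 (SD, n = 3) in WT LS, a difference of -3.80 percentage points (two-sided exact permutation test, p = 0.1). With 20 regroupings of 3 against 3 libraries, 0.1 is the smallest p this test can give. On adequate selenium the Scly KO mean was 13.3% ± 9.06 (SD, n = 3) against 5.85% ± 2.29 (SD, n = 3) in WT, a difference of 7.41 percentage points (exact permutation test, p = 0.4). Between the diets the difference was -9.66 percentage points in Scly KO (exact permutation test, p = 0.3) and 1.56 percentage points in WT (exact permutation test, p = 0.4). The gene is annotated on chromosome 17 from 39842997 to 39848829, and its copies elsewhere in the genome are not told apart by this table. A read from the precursor and a read from a mature ribosomal RNA cut from it cannot be told apart here either. The share is therefore that of reads assigned to Rn45s, not of the precursor alone.

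**Figure D3:**
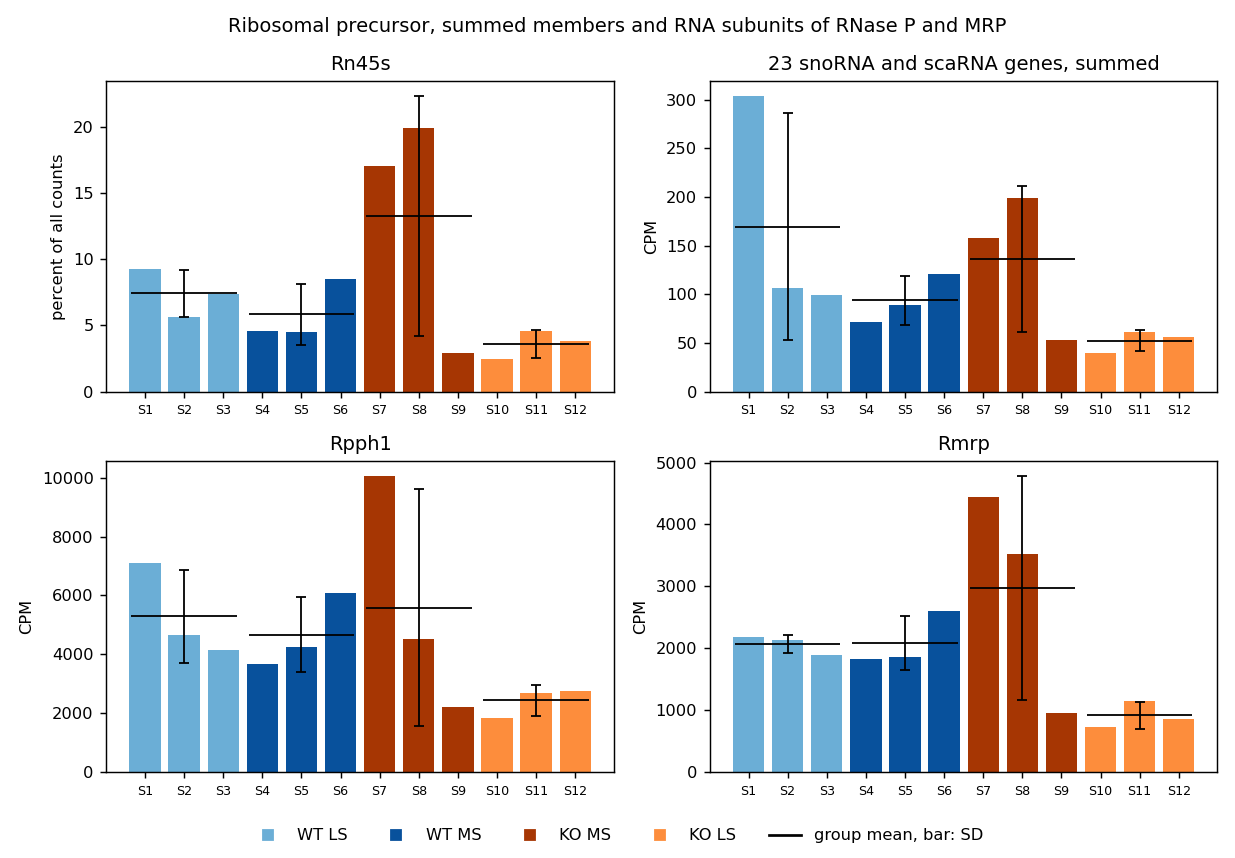
Share of all counts taken by Rn45s in percent, summed CPM of the 23 snoRNA and scaRNA genes, and CPM of Rpph1 and Rmrp (y axes) in each of the 12 libraries (x axis), with the group mean and SD (n = 3). Rn45s made up 17.0% of S7 and 19.9% of S8, but 2.94% of S9.

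Comparing Scly KO with WT on low selenium asks whether these RNAs differ when selenium supply is limited and cannot be recycled from selenocysteine. All 12 tested genes were lower in Scly KO, with a median log2 fold change of -1.89 and a range from -3.53 to -0.96, against a median of 0.06 and 45.8% below 0 over all 12009 tested genes. By edgeR's quasi-likelihood test with Benjamini-Hochberg adjustment, 0 of the 12 passed an adjusted p of 0.05 (background 0.00833%), the smallest adjusted p being 0.342. At an unadjusted p under 0.05, 10 of 12 were lower, against 5.47% of all tested genes. Snora7a, Snora26 and Snord15a passed the filter with the help of WT LS, where they were high. Counts over the 12 in this comparison are therefore given only as a description. With a minimum of 10 counts in every library, all 6 genes tested were lower. On the TMM scale, where S12 had a factor of 1.54, the groups did not overlap for 11 of 12 genes, against 11.8% of all tested genes. In all 11 the Scly KO libraries were lower, the exception being Snora26. Overlap per unscaled total was not counted. DESeq2 called 1 of the 12 (Snora7a, adjusted p = 0.0143, background 0.391%) and limma-voom with sample weights called 1 (Scarna6, adjusted p = 0.0351, background 0.749%).

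Snora7a had the largest difference, with means of 0.231 CPM (SD 0.0544, n = 3) on the Scly KO side and 2.95 CPM (SD 2.58, n = 3) on the WT side. Its log2 fold change was -3.53 (standard error, SE, 0.823, edgeR adjusted p = 0.342). Scarna6 had the smallest p after Snora7a, with 5.51 ± 0.897 CPM against 16.6 ± 2.87 CPM in WT, or -1.60 on the log2 scale (SE 0.438, edgeR adjusted p = 0.439). Scarna13 was at 12.9 ± 4.14 CPM against 52.0 ± 52.8 CPM, where the SD in WT LS is as large as the mean, with S1 at 113 CPM. The other tested H/ACA RNAs had log2 fold changes of -1.41 (Snora74a), -2.38 (Snora44), -2.06 (Snora78) and -2.81 (Snora26), and the C/D box RNAs of -2.40 (Snord15b), -1.20 (Snord15a), -0.96 (Snord17) and -1.78 (Snord22). Snord22 and Rn45s (-1.33) were the 2 that did not reach an unadjusted p of 0.05 by edgeR (quasi-likelihood p of 0.118 and 0.0751). With all genes of 10 or more summed counts in the test, 24 of 24 were lower and 13 had an unadjusted p under 0.05, against 4.95% of 14879 genes. Snord104 was then at -4.59 (SE 1.15), with 1, 2 and 3 counts in KO LS against 48, 4 and 6 in WT LS.

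The difference was smaller without S1 and kept its direction. With S1 left out, all 13 genes that passed the filter were lower, with a median of -1.23, and 3 had an unadjusted p under 0.05 by edgeR (Scarna6, Snora7a and Snord15a), against 1.48% of all genes lower. Without S1, S7 and S8 all 14 were lower, with a median of -1.27, and 7 had an unadjusted p under 0.05, against 4.89% of all genes. With library totals in place of TMM factors the median of all genes moved from 0.06 to 0.37 and that of the 12 genes to -1.499, with 8 at an unadjusted p under 0.05, against 2.08% of all genes. Without S12 all 15 genes tested were lower, with a median of -2.09, and 11 had an unadjusted p under 0.05, against 3.77% of all genes.

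On adequate selenium, where S9 stood apart from S7 and S8, edgeR and DESeq2 called none of the differences. Of 12 genes, 11 were higher in Scly KO, with a median log2 fold change of 0.68 against 0.03 for all genes (45.2% of which were below 0), and Snord15a was at -0.18. By edgeR 0 of 12 passed the adjusted threshold (background 0.00833%, smallest adjusted p 0.999), and 0 had an unadjusted p under 0.05 in either direction (background 0.516% higher and 0.408% lower). DESeq2 called 0 of 12 (background 0.025%), with 2 higher at an unadjusted p under 0.05 (background 0.625%), and limma-voom with sample weights called 7, against 7.54% of all genes. The largest values were 1.69 for Snora26 (SE 0.990), 1.503 for Snora78 (SE 0.719), 1.49 for Snord22 (SE 1.01) and 1.46 for Rn45s (SE 0.692). Without S8 alone the median was 0.05 and 7 of 12 genes were higher, and without S9 the median was 1.14 and 8 of 15 genes were higher at an unadjusted p under 0.05, against 7.01% of all genes. Without S7 and S8, which leaves S9 alone in its group and assumes that it varies like the others, 15 of 16 genes were lower in Scly KO and the median was -1.04.

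Low against adequate selenium in WT gave higher values on low selenium for all 12 genes, with a median log2 fold change of 0.81 against 0.01 for all genes, 48.2% of which were below 0. By edgeR 0 of 12 passed the adjusted threshold (background 0%), and 2 had an unadjusted p under 0.05, against 1.14% of all genes higher. These were Snord15b, at 13.5 ± 15.3 CPM on low and 2.60 ± 1.09 CPM on adequate selenium (log2 fold change 2.34, SE 0.745, edgeR adjusted p = 0.999997), and Snora7a (log2 fold change 1.73, SE 0.741). DESeq2 called 0 (background 0.0167%), with 3 higher at an unadjusted p under 0.05 (background 1.24%), and limma-voom with sample weights called 0 (background 0.15%), with 2 higher (background 6.3%). The groups did not overlap for 3 of 12 genes, against 5.21% of all genes. Without S1 the number at an unadjusted p under 0.05 was 0 (background 0.449% higher), the median was 0.41 and 9 of 13 genes were higher.

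In Scly KO the direction was the opposite, with all 12 genes lower on low than on adequate selenium. The median log2 fold change was -2.05 against 0.06 for all genes, 46.7% of which were below 0, and the values ran from -0.31 for Snord15a to -2.66 for Snora26. By edgeR 0 of 12 passed the adjusted threshold (background 0%, smallest adjusted p 0.201), and 9 had an unadjusted p under 0.05, against 12.7% of all genes lower. Scarna6 had the smallest p, at 5.51 ± 0.897 CPM on low and 21.7 ± 14.2 CPM on adequate selenium, or -1.97 on the log2 scale (SE 0.439, edgeR adjusted p = 0.201). Rn45s followed with -2.44 (SE 0.715), Snora78 with -2.29 (SE 0.733) and Snora7a with -2.48 (SE 0.850). The groups did not overlap for 3 of 12 genes, against 5.33% of all genes lower. DESeq2 called 1 (Rn45s, adjusted p = 0.0179, background 1.07%) and limma-voom with sample weights called 12, against 49.9% of all genes. DESeq2 gave no adjusted p for the other genes of the 12, nor for 9318 of all 12009 genes. Its background of 1.07% counts those genes as not called, so Rn45s was the only gene of the 12 that could be called.

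This comparison rested on S7 and S8, and on S8 more than on S7. Without S7 alone all 15 genes tested were lower, with a median of -2.17, and without S10 alone the median was -1.91. Without S8 the number at an unadjusted p under 0.05 was 2 (Rn45s and Scarna6) of 12, against 8.82% of all genes lower, and the median was -1.03. Without S7 and S8 the number was 0 (background 0.196%), the median was -0.31 and 12 of 16 genes were lower. Without S9 instead, edgeR called 12 of the 15 genes tested, but it also called 32.5% of all 12258 genes.

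The difference between the genotype effects on the 2 diets was also negative for all 12 genes, with a median of -2.86 against 0.05 for all genes, 46.6% of which were below 0. By edgeR 0 of 12 passed the adjusted threshold (background 0%, smallest adjusted p 0.650), while 11 had an unadjusted p under 0.05, against 4.63% of all genes lower. DESeq2 called 0 (background 0%), with 11 lower at an unadjusted p under 0.05 (background 5.68%), and limma-voom with sample weights called 12, against 17.3% of all genes. Scarna6 was at -2.28 (SE 0.608), Snora7a at -4.21 (SE 1.13) and Snora78 at -3.56 (SE 1.03). Without S7 and S8 the number at an unadjusted p under 0.05 was 1 (background 0.368%), and without S1, S7 and S8 it was 0 (background 0.302%). The 5 comparisons share libraries, so that a high S1 enters the first, the third and the last, and high S7 and S8 enter those with KO MS.

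**Figure D4:**
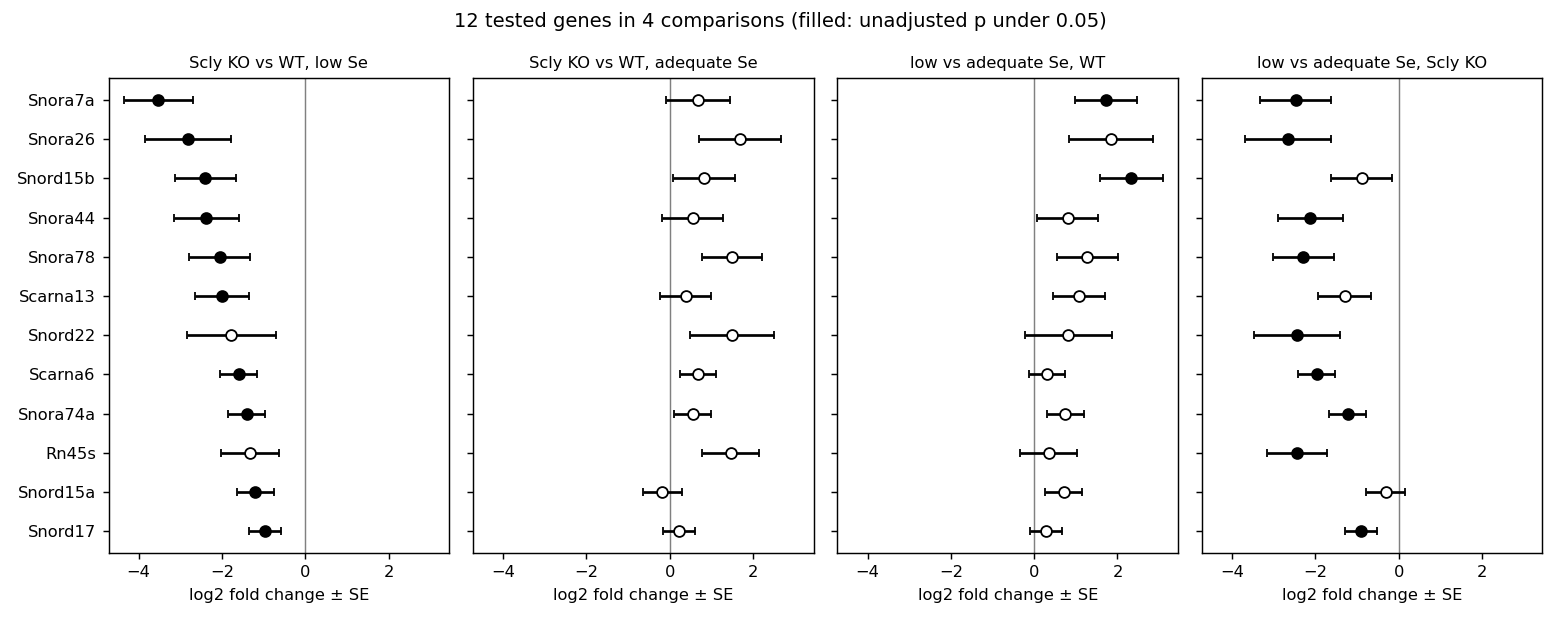
Log2 fold change from edgeR (x axis, bars are standard errors) of the 12 tested genes (y axis) in 4 comparisons, with filled points for an unadjusted p under 0.05. All 12 genes lie below 0 for Scly KO against WT on low selenium and for the diets in Scly KO.

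Most host genes were nearer to 0 than the snoRNA or scaRNA inside them, a difference that was not tested. By position, 20 of the 23 lie inside another gene on the same strand, and the same 20 do so when either strand is allowed, whereas Snord104, Snord118 and Snord89 do not. In GENCODE M21, 9 of the 20 lie in an intron of every host transcript that spans them, 8 overlap an exon in some transcripts and lie in an intron in others, and for 3 the host symbol is not matched. A read from an intron that has not been spliced out and a read from the mature RNA cannot be told apart in these counts. Scarna13 had 2652 counts against 36 for its host Snhg10, and Snora74a 2356 against 66 for Snhg4. Snora78 had 265 against 41 for Snhg9, and these were the 3 with more counts than their host. In the other 17 the host had more counts, whether it encodes a protein or not. Snora44 had 210 counts against 491 for the noncoding Snhg12 and Snord22 had 177 against 299 for the noncoding Snhg1, whereas Snord15b had 480 against 31982 for Rps3 and Snora7a 108 against 18744 for Rpl32, a ribosomal protein of the large subunit.

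For the 8 genes tested together with their host, the host was nearer to 0 in 7 for Scly KO against WT on low selenium. Snora44 was at -2.38 and its host Snhg12 at 0.05. Snora26 was at -2.81 against -0.14 for Dancr, and Snora7a at -3.53 against -0.39 for Rpl32. Scarna6 was at -1.60 against -0.53 for Atg16l1, an autophagy gene, and Snord17 at -0.96 against -0.13 for the sorting nexin gene Snx5. The exception was Snord15a at -1.20, next to -1.25 for its host Rps3 (SE 0.455, edgeR adjusted p = 0.439), while Snord15b of the same host was at -2.40. Rps3 was at 532, 308 and 281 CPM in WT LS, 236, 331 and 416 CPM in WT MS, 795, 482 and 175 CPM in KO MS, and 159, 188 and 125 CPM in KO LS. Its value was thus high in S7 and low in S9. Its snoRNAs did not follow it there, with Snord15b at 1.79 CPM in S7 and 3.60 CPM in S9, and Snord15a at 0.552 CPM and 0.681 CPM. Between the diets in Scly KO, Rps3 was at -1.62 and Rpl32 at -1.09, against -0.31 for Snord15a, -0.89 for Snord15b and -2.48 for Snora7a.

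**Figure D5:**
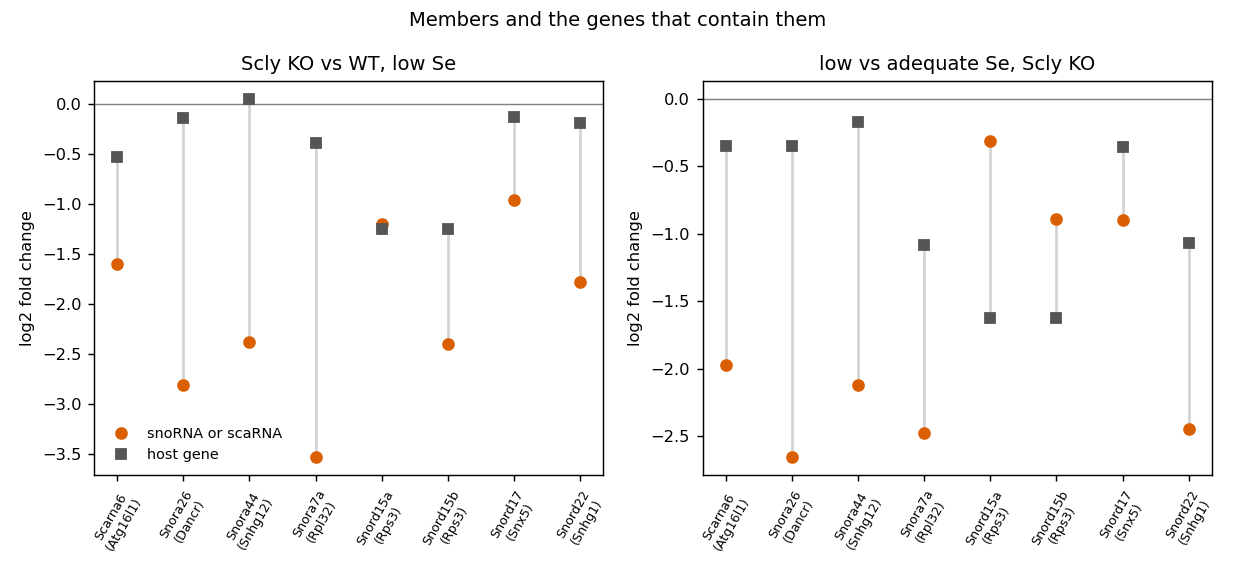
Log2 fold change from edgeR (y axis) of 8 snoRNA and scaRNA genes (circles) and of the genes that contain them (squares) for Scly KO against WT on low selenium and for the diets in Scly KO. On low selenium the host lies nearer to 0 than its snoRNA or scaRNA except for Rps3 and Snord15a.

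Of other short RNAs without a poly(A) tail, Rmrp and Rpph1 showed a similar order of libraries. Of 35 such genes listed, 14 were in the table and 4 were tested. Rmrp, the RNA of the RNase MRP that cleaves the ribosomal RNA precursor, was at 2182, 2124 and 1894 CPM in WT LS, 1818, 1851 and 2593 CPM in WT MS, 4446, 3519 and 959 CPM in KO MS, and 733, 1145 and 859 CPM in KO LS. Rpph1, the RNA of the RNase P that trims transfer RNAs, was at 7085, 4645 and 4145 CPM in WT LS, 3653, 4263 and 6084 CPM in WT MS, 10057, 4506 and 2200 CPM in KO MS, and 1832, 2686 and 2766 CPM in KO LS. For both, the KO LS libraries were below every WT library, and S9 was below every WT library as well. This was not so for Terc, the telomerase RNA, at 6.91 CPM in S9 and 7.46 CPM in S12 against 6.33 CPM in S2, or for the vault RNA Vaultrc5, at 1.002 CPM in S12 against 0.277 CPM in S3. For Scly KO against WT on low selenium their log2 fold changes were -1.18 and -1.12. All 4 were lower, the other 2 being Vaultrc5 (-1.51) and Terc (-0.31), and 0 passed the adjusted threshold by edgeR, with 2 at an unadjusted p under 0.05 (background 5.47% lower). Between the diets in Scly KO all 4 were lower and 3 had an unadjusted p under 0.05, against 12.7% of all genes lower (Rmrp at -1.71, Terc at -0.89 and Rpph1 at -1.20).

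Most of the tested long RNAs that stay in the nucleus were above 0, some of them barely. Of 6 tested, 5 were above 0 in the genotype comparison on low selenium (median 0.24), where 45.8% of all genes were below 0. By edgeR 0 had an unadjusted p under 0.05. Firre was at 0.02 and Neat1 at 0.17, and S12 was the highest library for Malat1, Kcnq1ot1, Neat1 and Firre. Malat1, a long RNA of nuclear speckles, was at 546, 479 and 733 CPM in WT LS and at 889, 712 and 1799 CPM in KO LS (log2 fold change 0.95, SE 0.447). Noncoding host genes of snoRNAs, of which 15 were tested, were below 0 in 10 with a median of -0.20, and 0 had an unadjusted p under 0.05. In the comparison of the diets in Scly KO, 13 of these 15 were below 0 and 3 were lower at an unadjusted p under 0.05, where 12.7% of all genes were, among them Zfas1 at -1.52 and Epb41l4aos at -1.11.

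The genes for the proteins that bind and assemble these RNAs were split in direction. Of the 9 tested core proteins of snoRNA particles, 5 were above and 4 below 0 for Scly KO against WT on low selenium (median 0.10), and 0 had an unadjusted p under 0.05 by edgeR. Nop58, a core protein of the C/D box particle, was at 0.73 and Rrp9, a protein of the U3 particle, at -0.39. Nop58 was highest in S12 (27.5 CPM), whereas S10 and S11 lay within the range of WT LS. Of 18 assembly and Cajal body factors 9 were above 0, with Nolc1, which shuttles between the nucleolus and the Cajal body, at 0.78 (unadjusted p = 0.0317 from edgeR) and Znhit3, a factor of C/D box particle assembly, at -1.49 (unadjusted p = 0.0193 from edgeR). These were the only 2 of the 18 at an unadjusted p under 0.05, where 5.78% of all genes were higher and 5.47% lower.

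Of 15 genes of RNA polymerase I and its factors, 9 were above 0 on low selenium. Its largest subunits Polr1a and Polr1b were at 1.06 and 0.81, and Polr1c, shared with RNA polymerase III, was at -0.61, all 3 at an unadjusted p under 0.05 by edgeR. Of 30 processing factors of ribosomal RNA, 23 were above 0 with a median of 0.21, against 0.06 for all genes, and 2 had an unadjusted p under 0.05, Utp20 at 0.84 and Nol6 at 0.84, where 5.78% of all genes were higher. For Polr1a, Polr1b, Utp20 and Nol6, S12 was the highest of the 12 libraries, and S10 and S11 also lay above every WT LS library. In these lists 0 genes passed the adjusted threshold by edgeR in any of the 5 comparisons, so none of these differences held up after adjustment.

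Markers of other liver cells also differed between the groups. The summed level of 8 Kupffer cell and macrophage markers was 182 to 231 CPM in KO LS, 246 to 504 CPM in KO MS, 254 to 385 CPM in WT LS and 256 to 276 CPM in WT MS. For Scly KO against WT on low selenium 5 of these 8 were below 0, with Clec4f at -1.20, and 3 above 0, with Marco at 1.47 and Cd68 at 1.01, and 0 passed the adjusted threshold by edgeR. The sum of 6 endothelial markers was 197 to 230 CPM in KO LS and 246 to 331 CPM in the other groups, and that of 5 red blood cell genes was 230 to 409 CPM in KO LS against 346 to 1021 CPM elsewhere. S12 alone differed in other markers. The sum of 6 bile duct markers was 289 CPM in S12 and 23.005 to 42.6 CPM in the other 11 libraries, and Spp1 accounted for 253 CPM of it. The 6 stellate cell markers summed to 547 CPM in S12 and 305 to 492 CPM in the others. Col1a1 (122 CPM against 1.01 to 7.74 CPM elsewhere), Pdgfrb and Des were highest in S12, whereas Dcn, Lrat and Reln lay within the range of the others. Among hepatocyte genes Cyp2e1 (836 CPM against 3517 to 6747 CPM), Ttr, Apoa1 and Serpina1a were lowest in S12. Alb, Tat, Cps1 and Hnf4a lay within the range of the others. The 8 hepatocyte markers summed to 62983 CPM in S12 and 72355 to 117601 CPM in the others. None of these marker genes was at 0 in every library. Their part, and that of depth, in the lower snoRNA and scaRNA levels of KO LS was not tested.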

How the data were processed

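Liver RNA of 12 samples was measured by RNA-seq after poly(A) isolation. The study's methods name FastQC for read quality, Cutadapt for trimming, STAR for alignment to mm10 within Partek Flow, and Partek E/M for counting, which divides a read between the genes it fits. Tool versions and the counting annotation were not given in the sources used here. What the authors deposited is a table of unscaled estimated counts, 89.8% of them whole numbers. A deposited table of the authors' DESeq2 comparisons (p-values, FDR and fold changes) was not used, and 0 value columns of the count table were left without a group.

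The estimated counts were rounded and scaled with TMM factors, CPM being per 1e+06 of the scaled total. The 12009 of 24795 genes kept by filterByExpr (minimum count 10) were fitted in edgeR 4.0.16 (R 4.3.3) with a quasi-likelihood model of 4 groups. The 5 comparisons were Scly KO against WT on each diet, the 2 diets within each genotype, and their interaction. P-values were adjusted by Benjamini-Hochberg and called under 0.05. The Rn45s share was compared by an exact permutation test. Positions of the 23 snoRNA and scaRNA genes were looked up in the RefSeq table of the same build, where all 23 matched, and sequences came from GENCODE M21.

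Alternatives were DESeq2 1.42.0, limma 3.58.1 (voom with sample weights), RLE or upper-quartile factors, other count filters, only the groups compared, unrounded counts, Rn45s or all 24 genes left out of the library sizes, each library left out in turn, and S7 and S8 or S12 left out. The fit without S12 was thus entered both in turn and again by itself. Library totals without TMM factors, the fit without S1, S7 and S8, and counts at an unadjusted p were added after seeing the data. The genes and lists were chosen with earlier results of these data known. Named were Scly, Rn45s, the 12 most counted other genes, those past a threshold or with the smallest p in a comparison, their host genes, up to 4 genes of each list, the genes with most counts in a single library and those at the threshold of 10. Values of single libraries, and any other gene, were picked with the values in view.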

Additional observations from a re-analysis of the deposited data

How the results depend on the processing

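For Scly KO against WT on low selenium, every tested snoRNA, scaRNA and Rn45s gene stayed below 0 under all 25 alternatives, with 0 called by edgeR. The fit without S12 is entered more than once among these 25. DESeq2 and limma-voom each called 1. A minimum of 10 counts in every library left 6 genes to test, of which 5 had an unadjusted p under 0.05. On adequate selenium limma-voom called 7 (background 7.54%). The number at an unadjusted p under 0.05 was 2 by DESeq2 (background 0.625% higher), 10 by limma-voom and 1 without S12, all higher in Scly KO. The median was -1.04 without S7 and S8 and -0.95 without S1, S7 and S8. For the diets in WT the number at an unadjusted p under 0.05 was 1 with 10 counts in every library. The median was 0.85 without S7 and S8 and 0.42 without S1, S7 and S8. For the diets in Scly KO, DESeq2 called 1, with no adjusted p for the other genes of the 12, and limma-voom called 12 (background 49.9%). The number at an unadjusted p under 0.05 was 4 with 10 counts in every library. The median was -0.31 without S7 and S8 and -0.23 without S1, S7 and S8. For the interaction limma-voom called 12 (background 17.3%), and the number at an unadjusted p under 0.05 was 5 with 10 counts in every library. The median was -1.02 without S7 and S8 and -0.57 without S1, S7 and S8. Between the settings the number of these genes tested ran from 6 to 16. Where no share of all genes stands beside a count, that count is not a result about these genes.

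Leaving out each library in turn gave 3 to 13 genes at an unadjusted p under 0.05 for Scly KO against WT on low selenium (3 without S1, background 1.48% lower). On adequate selenium it gave 0 to 8 (8 without S9, background 7.01% higher). The diets gave 0 to 5 in WT (0 without S1, background 0.449% higher, 5 without S2) and 2 to 12 in Scly KO (2 without S8, background 8.82% lower). For the interaction the number was 7 to 14. These fits tested 12 to 15 of the genes, and the share of all genes is given only for the fits where it is printed. The number called by edgeR was 0 to 12 for the diets in Scly KO (12 without S9, background 32.5%) and 0 to 0 for the other comparisons. The difference in Rn45s share ranged from -4.68 to -2.89 percentage points for Scly KO against WT on low selenium, from 4.11 to 12.6 on adequate selenium, from -14.8 to -6.36 for the diets in Scly KO and from 0.649 to 2.88 for the diets in WT.

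Without S7 and S8 the log2 fold change of Rn45s turned to -1.16 for the genotypes on adequate selenium and to 0.16 for the diets in Scly KO, and that of Snord22 to 0.69 in the latter. The values were the same to 2 decimals without S1, S7 and S8. Under that setting the interaction turned to 0.059 for Rn45s, 0.49 for Scarna13, 0.14 for Snord17 and 0.28 for Snord22. These settings leave S9 as the only KO MS library. Library totals in place of TMM moved the median of all genes to 0.37, -0.13 and 0.51 for Scly KO against WT on low and adequate selenium and for the diets in Scly KO, and to 0.54 for the interaction. The causes of these changes were not tested.

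No paired analysis was possible because the columns of the count table carry a library number from S1 to S12 and not the replicate number of the labels. There were 3 libraries a group, and 14 of the 23 snoRNA and scaRNA genes had fewer than 100 counts in all. For Scly KO against WT on low selenium the standard errors of the 12 tested genes ran from 0.385 to 1.06 on the log2 scale.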
